A study of Mus musculus with 12 samples.

Results

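Creatine kinases, adenylate kinases and AMP-activated protein kinase (AMPK) make up the system that buffers, redistributes and senses ATP in cardiomyocytes (CMs), the contracting muscle cells of the heart. Histone H3 trimethylated at lysine 4 (H3K4me3), a chromatin mark of active promoters, was examined at 9 genes of this system: *Ckm*, *Ckmt2*, *Ckb*, *Ak1*, *Ak3*, *Prkaa1*, *Prkaa2*, *Prkag2* and *Prkab2*. The members were all peaks of the deposited H3K4me3 matrix that carry 1 of these gene names. Each gene had a single such peak, which gave 9 of 15848 peaks. The signal comes from ChIP–seq (sequencing of DNA precipitated with an antibody to the mark) of nuclei that the study sorted from ventricles with an antibody against PCM1, a protein that surrounds the nuclei of CMs. Control mice (CtrlCre, labelled Ctrl_Cre for genotype) carried the αMHC-Cre transgene without floxed *Cpt1b*, and Cpt1bcKO mice carried αMHC-Cre together with *Cpt1b* fl/fl. The genotypes thus share the Cre transgene, which the α-myosin heavy chain promoter drives in CMs from embryonic stages. *Cpt1b* encodes the muscle carnitine palmitoyltransferase, which mitochondria need to import long-chain fatty acids. The animals were adult, without an age for these libraries in the sources used here. There were 3 H3K4me3 libraries of each genotype. The labels do not say whether the 3 libraries of a genotype came from separate mice, so the p-values cannot be taken to measure a spread between mice. Those of limma, the fit used for single peaks, rest on the spread between these libraries. Limma moderates that spread toward a trend of variance with level over all tested peaks.

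Creatine kinases pass phosphate between ATP and creatine, with a mitochondrial form next to the site of ATP synthesis and cytosolic forms at the myofibrils. Adenylate kinases interconvert AMP, ADP and ATP or GTP, so that a fall in ATP is amplified into a rise in AMP. AMPK is a heterotrimer of a catalytic alpha, a scaffolding beta and a nucleotide-binding gamma subunit, and it promotes fatty acid oxidation and glucose uptake when AMP and ADP rise. H3K4me3 peaks sit around transcription starts and tend to spread into the gene body at highly transcribed genes of cell identity.

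The members included promoters of very different base composition. CpG dinucleotides, the sites of DNA methylation in mammals, were counted in RefSeq promoters of GRCm38.p6, which run from 250 bases before a start to 50 bases after it. The table holds 14 promoters of the 9 genes, and 11 of them lay inside the peak of their own gene. The promoters of the muscle and brain cytosolic creatine kinases, of the mitochondrial creatine kinase, of *Ak1* at the start nearest the peak summit and of both AMPK catalytic subunits are given 5′ to 3′, because they set muscle-type isoforms beside widely expressed ones. Capitals mark CG dinucleotides.
Ckm (chr7:19410844-19411143, plus strand): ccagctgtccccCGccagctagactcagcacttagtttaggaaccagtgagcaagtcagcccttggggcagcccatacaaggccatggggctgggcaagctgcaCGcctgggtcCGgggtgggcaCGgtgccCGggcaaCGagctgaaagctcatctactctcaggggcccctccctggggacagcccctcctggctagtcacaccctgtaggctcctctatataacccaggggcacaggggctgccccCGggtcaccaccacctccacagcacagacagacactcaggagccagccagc
Ckmt2 (chr13:91876836-91877135, minus strand): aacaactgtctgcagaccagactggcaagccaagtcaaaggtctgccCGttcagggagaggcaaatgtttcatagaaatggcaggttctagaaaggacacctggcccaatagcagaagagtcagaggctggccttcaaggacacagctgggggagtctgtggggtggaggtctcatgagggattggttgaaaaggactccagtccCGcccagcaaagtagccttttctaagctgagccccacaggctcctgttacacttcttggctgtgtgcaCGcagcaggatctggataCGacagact
Ckb (chr12:111672289-111672588, minus strand): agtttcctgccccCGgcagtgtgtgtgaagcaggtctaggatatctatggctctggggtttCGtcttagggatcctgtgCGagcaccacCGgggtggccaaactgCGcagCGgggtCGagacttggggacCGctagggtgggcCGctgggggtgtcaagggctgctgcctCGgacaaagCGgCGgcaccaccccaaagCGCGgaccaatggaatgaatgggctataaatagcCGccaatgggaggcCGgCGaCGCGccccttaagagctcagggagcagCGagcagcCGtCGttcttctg
Ak1 (chr2:32625187-32625486, plus strand): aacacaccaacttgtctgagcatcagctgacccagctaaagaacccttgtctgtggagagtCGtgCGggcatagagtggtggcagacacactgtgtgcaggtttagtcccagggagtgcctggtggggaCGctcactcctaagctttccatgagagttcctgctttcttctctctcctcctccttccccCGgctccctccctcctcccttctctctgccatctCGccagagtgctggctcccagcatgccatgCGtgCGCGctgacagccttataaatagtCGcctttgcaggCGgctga
Prkaa2 (chr4:105109849-105110148, minus strand): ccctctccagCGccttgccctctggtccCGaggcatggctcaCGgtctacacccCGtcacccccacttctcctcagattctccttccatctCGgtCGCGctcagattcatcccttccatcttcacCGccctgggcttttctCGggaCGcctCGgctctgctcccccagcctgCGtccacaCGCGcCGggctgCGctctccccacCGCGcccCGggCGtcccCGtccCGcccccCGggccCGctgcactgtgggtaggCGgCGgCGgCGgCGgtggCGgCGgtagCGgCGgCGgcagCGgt
Prkaa1 (chr15:5143611-5143910, plus strand): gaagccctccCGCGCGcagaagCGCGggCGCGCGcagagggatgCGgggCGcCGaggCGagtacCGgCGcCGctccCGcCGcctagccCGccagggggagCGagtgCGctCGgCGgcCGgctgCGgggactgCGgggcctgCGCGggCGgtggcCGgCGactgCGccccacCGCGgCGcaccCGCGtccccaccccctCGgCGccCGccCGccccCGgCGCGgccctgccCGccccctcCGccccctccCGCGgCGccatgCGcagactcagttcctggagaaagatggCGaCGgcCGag
The *Ckm* and *Ckmt2* promoters held 7 and 4 CG dinucleotides and the *Ak1* promoter held 10, whereas *Ckb* held 22, *Prkaa2* held 35 and *Prkaa1* held 52. The median over 32851 promoters of the table was 7, with quartiles of 3 and 20. The promoters of *Ak3*, *Prkab2* and *Prkag2* at its first start held 21, 23 and 25. Those at internal *Prkag2* starts, outside the peak named for the gene, held 45 and 6. The remaining pair of *Ak1* promoters inside its peak held 2 CG dinucleotides each.

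Short motifs were counted on both strands in the same windows. The GC box GGGCGG occurred 5 times in the *Prkaa1* and in the *Prkab2* promoter, 3 times in *Ak3*, 2 times in *Prkaa2* and in the first *Prkag2* promoter, and once in *Ckmt2*, and 35.7% of all promoters held at least 1. The *Ckm*, *Ckb* and 4 *Ak1* promoters held none. The E-box CANNTG, the core letters bound by MyoD and other basic helix-loop-helix factors, occurred 4 times in *Ckmt2* and once in *Ckm*. The *Ak3* promoter held 1, the *Ak1* promoters 1 to 3 and the *Prkag2* promoters 2 to 3. None was found in *Ckb*, *Prkaa1*, *Prkaa2* or *Prkab2*, and 72.3% of all promoters held at least 1. TATAAA was found in *Ckb* and in the *Ak1* promoter shown and in 13.6% of all promoters. In both it overlapped the only match to the MEF2 motif, which 3.19% of all promoters held. A match to the CArG box, present in 1.63% of all promoters, was found in *Prkab2*. AAGGTCA, the core of the site of oestrogen-related receptors, was found in an internal *Ak1* promoter and an internal *Prkag2* promoter, against 4.72% of all promoters. These matches describe letters and not bound sites.

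The *Ckmt2* peak (chr13:91872554-91878367) was the widest, with 5813 bases, and was wider than 97.8% of the 15039 tested peaks. The peaks of *Ckm* (chr7:19410272-19415145), *Ak1* (chr2:32625176-32629786) and *Ckb* (chr12:111668663-111672693) spanned 4873, 4610 and 4030 bases and were wider than 96.4%, 95.8% and 93.9% of tested peaks. The AMPK peaks were narrower. *Prkaa2* (chr4:105107723-105110715) spanned 2992 bases, *Prkag2* (chr5:25098989-25101538) 2549 bases, *Prkab2* (chr3:97657486-97660003) 2517 bases and *Prkaa1* (chr15:5143258-5144853) 1595 bases. The *Ak3* peak (chr19:29046319-29048672), of the mitochondrial matrix GTP:AMP phosphotransferase, spanned 2353 bases. The 75th percentile of width, above which the study called peaks broad, was taken here over the tested peaks and was 2222 bases. By this limit 8 of the 9 members counted as broad. The study ranked genes by peak breadth in control CMs, so its classes may differ. *Prkaa1* lay near the median of 1514 bases. Widths are those of the union over all libraries of both genotypes, so they cannot differ between genotypes.

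**Figure D1:**
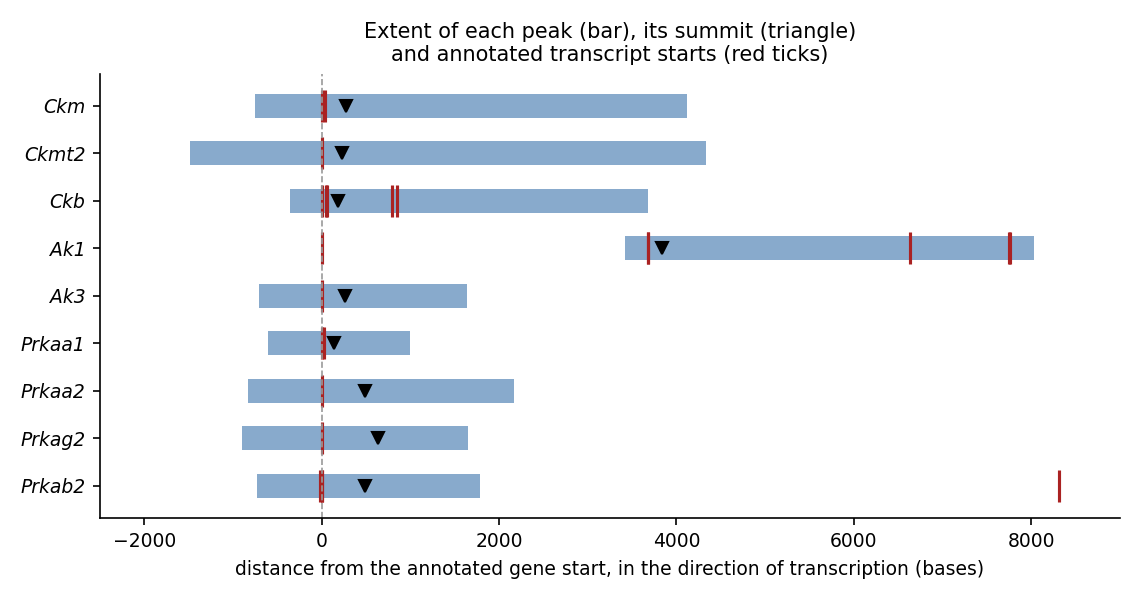
Extent of the 9 member peaks in bases from the annotated gene start, with positive values in the direction of transcription. Bars give the peak, triangles its summit and red ticks the annotated transcript starts (more distant starts are not drawn); the *Ckm*, *Ckmt2* and *Ckb* peaks reach 4120, 4331 and 3675 bases downstream of the start (for *Ckb*, past the end of the gene), whereas the *Ak1* peak starts 3418 bases downstream of the first annotated start.

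All peaks but that of *Ak1* spanned the gene start of the deposited table and reached further downstream than upstream of it. The *Ak1* peak did not touch that start. The *Ckm* peak ran from -753 to 4120 bases relative to the start, and 7.14% of it was coding exon in GENCODE vM21 with most of the rest intron. GENCODE vM21 also lists the transcript Ckm-202, which starts at 19404776 on chromosome 7, outside any peak. The part of the peak before the deposited start therefore lies within the gene in vM21. The *Ckmt2* peak ran from -1482 to 4331 bases and lay to 73.4% in introns. The *Ckb* gene is only 2978 bases long, and its peak covered the gene from end to end.

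The *Ak1* peak covered the starts of 5 of 6 annotated transcripts. The transcript with the most upstream start, Ak1-203, begins at 32621758 on chromosome 2, outside any peak of the matrix. The *Prkag2* gene, which encodes a gamma subunit of AMPK, spans 237899 bases with 10 transcripts, and its named peak covered the start of Prkag2-201 alone. A pair of peaks without an assigned gene lay over internal *Prkag2* starts. The peak at chr5:24994822-24996253 covered the start of Prkag2-202, and that at chr5:24907767-24909252 covered 5 further starts. The *Ak3* peak lay entirely inside the antisense gene *1700018L02Rik*, and the *Prkag2* peak shared 556 bases with *2900005J15Rik* on the opposite strand. ChIP–seq signal carries no strand, so it cannot be divided between such genes.

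Wider member peaks were poorer in CG dinucleotides. The *Ckmt2*, *Ak1* and *Ckm* peaks held 0.998, 1.28 and 1.52 CG per 100 bases, and the *Prkaa1* peak held 9.02. Over the 9 members Spearman's rho of width and CG density was -0.73, and over all tested peaks with an assigned gene it was -0.25. *Ckb* departed from this order, with 5.18 CG per 100 bases in a wide peak. These values describe sequence and peak calls, which the libraries share.

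The libraries were compared as a whole before the members. Counts recovered from the deposited values totalled between 763133 (CtrlCre replicate 2) and 2766416 per library in all peaks, a 3.63-fold range. Values below are these counts divided by size factors (normalized counts), so a gain or loss shared by all peaks is not visible. The study reported a lower total level of H3K4me3 in Cpt1bcKO CM nuclei by western blot. Higher, lower and unchanged levels below are therefore relative to the other peaks. At the targeted gene, the *Cpt1b* peak held 428, 407 and 436 normalized counts in the control libraries and 572, 689 and 568 in the Cpt1bcKO libraries, a log2 difference of 0.52 (SE 0.10, adjusted p = 0.00357 in limma). This peak (chr15:89421995-89431151) also extends upstream of exon 1 of Cpt1b-201 (chr15:89425798-89425863). The signal of the upstream part was not separated. Exons 10 and 11 of Cpt1b-201 lie outside this peak (0 bases in it), so if the floxed exons are numbered as in that transcript, the peak does not check the labels. Of the CM markers, 9 of 9 genes had a peak, with a summed level of 7521 to 8954 in CtrlCre and 5774 to 8312 in Cpt1bcKO libraries. Of their 10 tested peaks, 8 were lower and 2 higher in Cpt1bcKO (median log2 difference -0.22), where 51.2% of all tested peaks were higher. At an adjusted p under 0.05 in limma, 0 of the 10 passed. Peaks were found at 1 of 6 fibroblast markers (*Pdgfra*, 56 to 69 over all libraries), 1 of 6 endothelial markers (*Kdr*), 2 of 6 smooth muscle and pericyte markers (*Cnn1* and *Myh11*) and 0 of 6 leukocyte markers. The endothelial sum was 39 to 91 in CtrlCre and 31 to 51 in Cpt1bcKO libraries, and the smooth muscle sum was 32 to 49 and 18 to 29. The part of these marker levels in the member results was not tested. Less mark per nucleus and fewer nuclei of a type cannot be told apart in these pools.

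Whether H3K4me3 at the energy-transfer genes differed with loss of *Cpt1b* was read from a fit in which all tested peaks were compared in limma on log2(normalized count + 1). With the threshold of 0.05 for the adjusted p, 0 of 9 were called, against 2.93% of all tested peaks. With limma-voom on the recovered counts, 0 of 9 were called as well. At an unadjusted p under 0.05, limma gave 1 of 9 members (*Ak3*), or 11.1%, against 12.8% of tested peaks, and limma-voom gave 0. A complete separation of the 3 CtrlCre from the 3 Cpt1bcKO values was seen at 1 of 9 members (*Prkab2*), or 11.1%, against 16.3% of tested peaks. Neither share is above its background. The median log2 difference (Cpt1bcKO minus CtrlCre) was -0.002 over the members and 0.0057 over all tested peaks, with 4 members above and 5 below 0. Across the members the 95% intervals of the difference reached from a 0.739-fold level (*Ckb*) to a 1.46-fold level (*Prkaa1*).

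**Figure D2:**
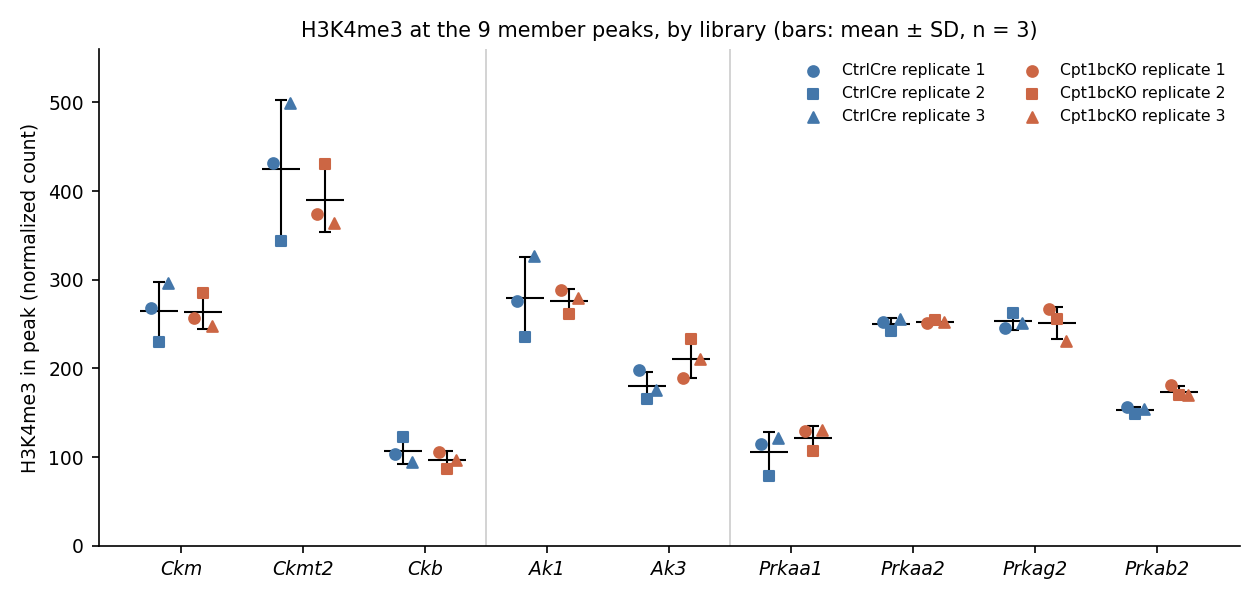
H3K4me3 at each member peak in normalized counts, with 1 point per library, the 3 CtrlCre libraries in blue and the 3 Cpt1bcKO libraries in orange, and bars for the mean and SD (n = 3). The genotypes overlap at every member but *Prkab2*, where the Cpt1bcKO libraries lie at 170 to 181 and the CtrlCre libraries at 149 to 156.

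Among the creatine kinases, *Ckmt2*, the sarcomeric mitochondrial form, had the highest total signal in its peak of all members, over the widest peak. Its peak held 432, 344 and 499 normalized counts in CtrlCre replicates 1 to 3 and 374, 431 and 364 in Cpt1bcKO replicates 1 to 3. All Cpt1bcKO values lay within the control range, whose ends were set by CtrlCre replicates 2 and 3. Means were 425 ± 77.7 and 390 ± 36.1 (SD, n = 3), and the log2 difference was -0.11 (SE 0.12, 95% interval -0.35 to 0.13, adjusted p = 0.774 in limma). Without CtrlCre replicate 2 the difference was -0.26, and without CtrlCre replicate 3 it was 0.01.

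*Ckm*, the cytosolic muscle form bound to the M line, held 268, 230 and 296 normalized counts in CtrlCre and 257, 285 and 248 in Cpt1bcKO libraries. The Cpt1bcKO values again fell inside the control range. The means were 265 ± 33.1 and 263 ± 19.3 (SD, n = 3), with a log2 difference of -0.0021 (SE 0.11, 95% interval -0.22 to 0.22, adjusted p = 0.998 in limma). *Ckb*, the brain-type cytosolic form that the fetal heart also uses, was the lowest of the 3 creatine kinases. Its values were 103, 123 and 94 in CtrlCre and 106, 86 and 97 in Cpt1bcKO libraries, which overlapped. They differed by -0.14 on the log2 scale (SE 0.14, 95% interval -0.44 to 0.15, adjusted p = 0.766 in limma), and it was -0.04 without CtrlCre replicate 2, the library with the highest value, -0.06 without Cpt1bcKO replicate 2, -0.23 without CtrlCre replicate 3 and -0.21 without Cpt1bcKO replicate 1.

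Both adenylate kinases had peaks that counted as broad by the limit used here. *Ak1*, the main cytosolic form of muscle, held 276, 235 and 327 normalized counts in CtrlCre and 288, 261 and 279 in Cpt1bcKO libraries. The control libraries enclosed the Cpt1bcKO libraries, and CtrlCre replicate 3 was again the highest and replicate 2 the lowest. On the log2 scale the genotypes differed by -0.0054 (SE 0.11, 95% interval -0.23 to 0.22, adjusted p = 0.994 in limma), and it was -0.12 without CtrlCre replicate 2 and 0.11 without CtrlCre replicate 3.

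*Ak3* had the smallest p of the members. Its peak held 198, 165 and 176 normalized counts in CtrlCre and 189, 233 and 211 in Cpt1bcKO libraries. A pair of Cpt1bcKO libraries exceeded all controls, and the third lay under CtrlCre replicate 1. The means were 180 ± 16.8 and 211 ± 22 (SD, n = 3), a log2 difference of 0.23 (SE 0.11, 95% interval 0.0029 to 0.46). The unadjusted p was 0.0474 and the adjusted p was 0.379 in limma, with adjusted p from 0.324 to 0.706 over the alternatives, so the difference did not pass the correction. It was 0.16 without Cpt1bcKO replicate 2 and 0.31 without Cpt1bcKO replicate 1.

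None of the AMPK subunits passed the test. *Prkaa2*, the catalytic subunit that prevails in adult heart and skeletal muscle, held 252, 242 and 256 normalized counts in CtrlCre and 251, 255 and 252 in Cpt1bcKO libraries. These 6 values lay closer together than those of any other member on the log2 scale. Their difference was 0.02 (SE 0.09, 95% interval -0.18 to 0.21, adjusted p = 0.976 in limma). *Prkaa1*, the widely expressed catalytic subunit, held 115, 79 and 122 in CtrlCre and 129, 107 and 130 in Cpt1bcKO libraries. Its lowest Cpt1bcKO value lay under 2 control values. A difference of 0.23 on the log2 scale (SE 0.15, 95% interval -0.09 to 0.54, adjusted p = 0.588 in limma) rested on CtrlCre replicate 2, without which it was 0.04. It was 0.35 without CtrlCre replicate 3 and 0.10 in limma-voom. CtrlCre replicate 2 was also the shallowest library, with 34 recovered counts in the *Prkaa1* peak. Its counting error there was 17.1% if each count is taken as 1 independent read.

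*Prkag2*, whose protein senses the nucleotides and whose mutations cause a glycogen storage cardiomyopathy, held 245, 263 and 251 normalized counts in CtrlCre and 267, 256 and 231 in Cpt1bcKO libraries. The Cpt1bcKO libraries spread beyond the controls on both sides. Their log2 difference was -0.01 (SE 0.10, 95% interval -0.21 to 0.19, adjusted p = 0.982 in limma). At the unnamed peak over the start of Prkag2-202 the libraries held 53, 67 and 70 in CtrlCre and 70, 78 and 90 in Cpt1bcKO, a log2 difference of 0.32 (SE 0.17, adjusted p = 0.456 in limma) that was 0.20 without CtrlCre replicate 1. At the unnamed peak over 5 further starts they held 107, 114 and 100 against 85, 86 and 114, a log2 difference of -0.18 (SE 0.14, adjusted p = 0.680 in limma). It was -0.32 without Cpt1bcKO replicate 3, -0.11 without Cpt1bcKO replicate 1 and -0.12 without Cpt1bcKO replicate 2. Neither internal peak passed the test, and whether the 3 peaks differ in their response was not tested.

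*Prkab2*, a beta subunit prominent in muscle that binds glycogen and holds the complex together, was the only member whose genotypes did not overlap. It held 156, 149 and 154 normalized counts in CtrlCre and 181, 170 and 170 in Cpt1bcKO libraries. Every Cpt1bcKO library was thus above every control library, with means of 153 ± 3.61 and 174 ± 6.35 (SD, n = 3). The log2 difference was 0.18 (SE 0.10, 95% interval -0.03 to 0.40, adjusted p = 0.500 in limma, 0.488 to 0.776 over the alternatives). It was between 0.15 and 0.20 with each library left out in turn. The SE is the one moderated over all tested peaks. The SDs of the log2 values of *Prkab2* itself were 0.034 in CtrlCre and 0.052 in Cpt1bcKO libraries.

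**Figure D3:**
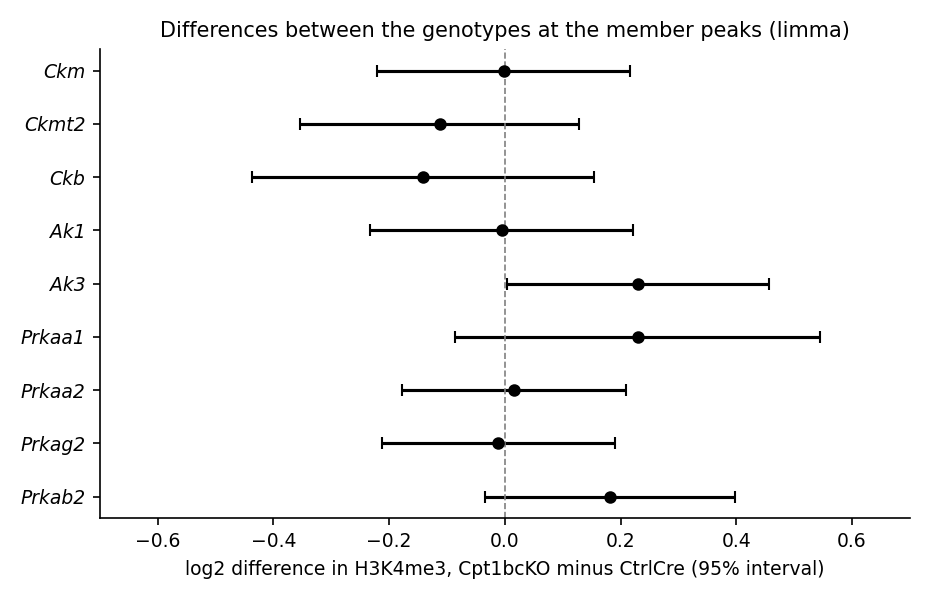
Log2 difference in H3K4me3 between Cpt1bcKO and CtrlCre libraries at each member peak, from limma on log2(normalized count + 1). Points give the difference and bars its 95% interval before correction over peaks; 8 of the 9 intervals include 0, and that of *Ak3* begins at 0.0029.

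Recovered counts in a member peak ranged from 34 to 664 per library, which corresponds to counting errors from 3.88% to 17.1%. These errors cover counting alone. The SE of the log2 difference lay between 0.09 (*Prkaa2*) and 0.15 (*Prkaa1*), with a median of 0.11 over the members and 0.15 over all tested peaks. CtrlCre replicate 2 had the lowest control value at 7 of 9 members and the highest at the remaining *Ckb* and *Prkag2*. CtrlCre replicate 3 was the highest control at 5 members.

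Levels of different genes were set side by side per kilobase (kb) of peak. In CtrlCre libraries *Prkag2* led with 99.3 ± 3.60 normalized counts per kb (SD, n = 3), followed by *Prkaa2* with 83.6 ± 2.41. These neighbours did not overlap. *Ak3* (76.4 ± 7.14), *Ckmt2* (73.1 ± 13.4), *Prkaa1* (66.0 ± 14.5), *Prkab2* (60.8 ± 1.43), *Ak1* (60.6 ± 10.0) and *Ckm* (54.3 ± 6.80) followed, and the range of each overlapped that of the gene before it. *Ckb* stood apart with 26.5 ± 3.68, which put it above only 13.2% of all tested peaks by this measure. The median of tested peaks was 60.5.

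In Cpt1bcKO libraries the order began with *Prkag2* (98.6 ± 7.24), *Ak3* (89.7 ± 9.35) and *Prkaa2* (84.4 ± 0.696), whose neighbouring ranges overlapped. *Prkaa1* (76.5 ± 8.15), *Prkab2* (69.0 ± 2.52) and *Ckmt2* (67.0 ± 6.22) formed a next group of overlapping neighbours, apart from *Prkaa2* above and from *Ak1* (59.9 ± 2.98) below. *Ckm* (54.0 ± 3.96) overlapped *Ak1*, and *Ckb* (23.9 ± 2.49) again lay apart. By total signal of the peak the order was different, since *Ckmt2*, *Ak1* and *Ckm* exceeded 98.5%, 94.4% and 93.4% of tested peaks and *Ckb* exceeded 49.8%. Per kb, *Ckm* and *Ak1* stayed below *Prkaa2* and *Prkag2* in every library of both genotypes.

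Ratios between isoforms were taken within a library, as log2 of the ratio of (normalized count + 1), where the size factor nearly cancels. The log2 ratio of *Ckm* to *Ckb* was 1.37, 0.90 and 1.64 in CtrlCre and 1.27, 1.72 and 1.35 in Cpt1bcKO libraries. The muscle form exceeded the brain form in every library, and the genotypes overlapped, with means of 1.30 ± 0.38 and 1.44 ± 0.24 (SD, n = 3). The difference of 0.14 gave p = 0.7 in an exact two-sided permutation test, and it was -0.06 without CtrlCre replicate 2.

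The log2 ratio of *Prkaa2* to *Prkaa1* was 1.12, 1.60 and 1.06 in CtrlCre and 0.95, 1.24 and 0.95 in Cpt1bcKO libraries. The difference was -0.21 (exact permutation p = 0.5) and was -0.04 without CtrlCre replicate 2. The log2 ratio of *Ak1* to *Ak3* was 0.48, 0.51 and 0.89 in CtrlCre and 0.61, 0.16 and 0.40 in Cpt1bcKO libraries. The difference was -0.24 (exact permutation p = 0.4), and it was -0.10 without CtrlCre replicate 3 and -0.12 without Cpt1bcKO replicate 2. The values of the genotypes overlapped for each ratio. With 3 libraries against 3 the test cannot give a p below 0.1, and the Benjamini–Hochberg adjusted p over the 3 ratios was 0.7 for each.

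**Figure D4:**
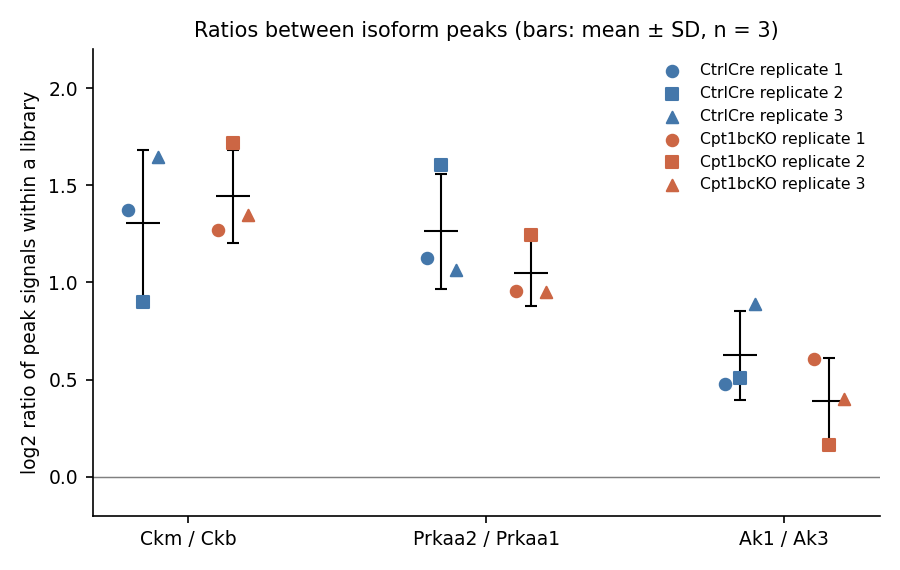
Log2 ratio of the (normalized count + 1) values of a pair of isoform peaks within each library, for *Ckm* over *Ckb*, *Prkaa2* over *Prkaa1* and *Ak1* over *Ak3*, with the CtrlCre libraries in blue, the Cpt1bcKO libraries in orange, and bars for the mean and SD (n = 3). All 18 ratios are above 0 and the genotypes overlap in each pair.

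The other genes of the pathway were read from the same fit. They comprised 77 genes in 7 lists, of which 64 had 65 tested peaks. At an adjusted p under 0.05 in limma, 3 of 65 peaks were higher and 0 were lower in Cpt1bcKO CMs. That is 4.62%, where all tested peaks gave 2.93% in both directions. The median log2 difference of the 65 peaks was 0.03, against 0.0057 over all tested peaks, with 37 above and 28 below 0. At an unadjusted p under 0.05, 8 were higher and 3 were lower, together 16.9% against 12.8% of all tested peaks.

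Among genes of creatine supply, *Slc6a8*, the plasma membrane transporter through which CMs take up creatine, rose. Its peak (chrX:73672617-73676221) held 130, 170 and 167 normalized counts in CtrlCre and 214, 221 and 191 in Cpt1bcKO libraries, without overlap. The log2 difference was 0.43 (SE 0.12, adjusted p = 0.0449 in limma), and 7 of 16 alternatives kept an adjusted p under 0.05. Leaving out CtrlCre replicate 1 gave an adjusted p of 0.293. *Gamt*, which encodes the methyltransferase of the last step of creatine synthesis, held 66, 51 and 84 in CtrlCre and 42, 58 and 40 in Cpt1bcKO libraries (log2 difference -0.50, SE 0.22, adjusted p = 0.310 in limma). Of the 4 tested peaks of this list, 1 passed the test, higher.

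Of 19 tested peaks of textbook AMPK substrates, 1 passed, also higher. It belonged to *Mlxipl*, which encodes the carbohydrate-responsive transcription factor ChREBP. The peak (chr5:135106580-135108399) rose from 133, 105 and 113 to 184, 161 and 153 normalized counts, with a log2 difference of 0.50 (SE 0.12, adjusted p = 0.0223 in limma). The adjusted p was under 0.05 in 11 of 16 alternatives and was 0.179 without Cpt1bcKO replicate 1. *Pfkfb2*, a heart enzyme that sets the level of fructose 2,6-bisphosphate, held 559 ± 30.5 and 680 ± 31.2 (SD, n = 3; log2 difference 0.28, adjusted p = 0.157 in limma). *Acacb*, the acetyl-CoA carboxylase whose product malonyl-CoA inhibits CPT1, held 277 ± 25.5 and 336 ± 29.7 (log2 difference 0.28, adjusted p = 0.184 in limma). *Tsc2*, a subunit of the complex that restrains mTORC1, held 146 ± 1 and 175 ± 4.93 (log2 difference 0.26, adjusted p = 0.253 in limma).

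Of 12 tested peaks of AMPK-related kinases, that of *Sik1*, a salt-inducible kinase, rose. Its peak (chr17:31852651-31856377) went from 166, 179 and 191 to 251, 241 and 211 normalized counts, a log2 difference of 0.39 (SE 0.10, adjusted p = 0.0435 in limma). It kept an adjusted p under 0.05 in 7 of 16 alternatives, and without Cpt1bcKO replicate 1 the adjusted p was 0.245. *Mark4* held 111 ± 13.8 and 150 ± 1 (SD, n = 3; log2 difference 0.44, adjusted p = 0.0529 in limma).

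The remaining lists held no peak past the test. Of the other AMPK subunits (*Prkab1*, *Prkag1* and *Prkag3*), 0 of 3 peaks passed, with log2 differences between -0.31 and 0.03 and 0 of 3 at an unadjusted p under 0.05. Among upstream kinases and scaffolds of AMPK, 0 of 9 peaks passed and 1 had an unadjusted p under 0.05, that of *Fnip1*, a folliculin-interacting protein that binds AMPK (log2 difference 0.29, adjusted p = 0.120 in limma). Among other adenylate and nucleoside phosphate kinases, 0 of 8 passed and *Ak9* alone had an unadjusted p under 0.05 (log2 difference -0.23, adjusted p = 0.287 in limma). In AMP and adenosine turnover, 0 of 10 passed and 1 had an unadjusted p under 0.05. Limma-voom gave 4 of 65 pathway peaks, which added *Mark4*.

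**Figure D5:**
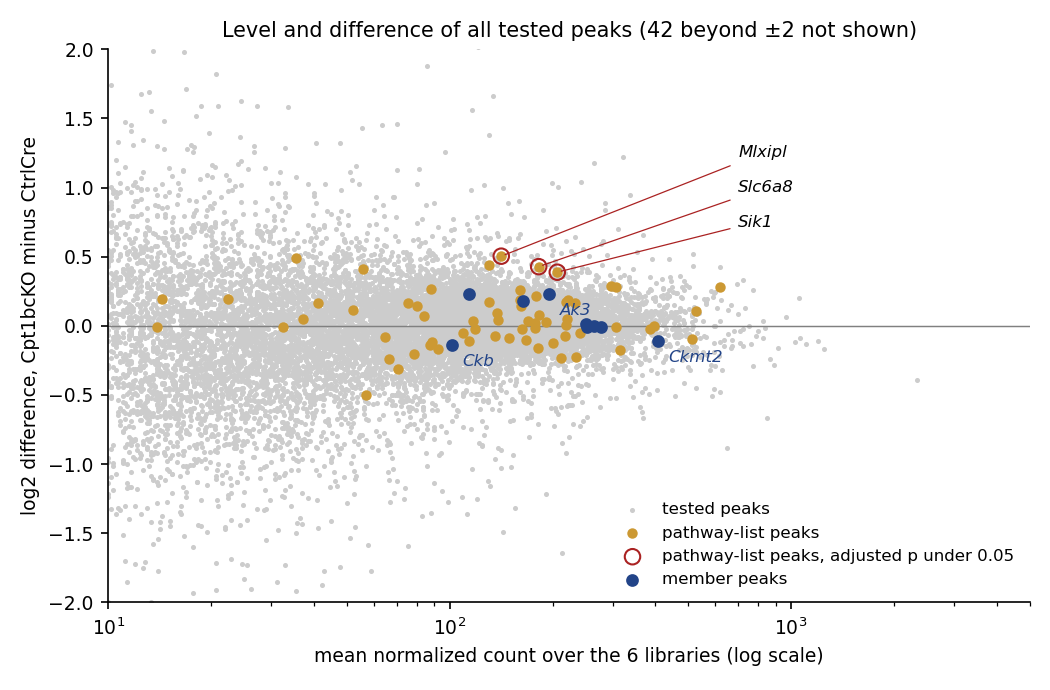
Mean normalized count over the 6 libraries (log scale) and log2 difference between Cpt1bcKO and CtrlCre for all tested peaks (grey), the 65 pathway-list peaks (yellow) and the 9 members (blue), with 42 tested peaks beyond 2 on either side not drawn. The members lie between -0.14 and 0.23, and the circled pathway peaks *Mlxipl*, *Slc6a8* and *Sik1* lie at 0.50, 0.43 and 0.39.

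As a description of shared variation, 9327 peaks with an assigned gene and a mean of at least 50 were ranked by the Pearson correlation of their log2 values with a member over the 6 libraries. The closest to *Ckm* were *Pola1* and *Per1* (r = 0.99 for both), and 30 peaks exceeded 0.95. The closest to *Ckmt2* were *Wasf2* (r = 0.99) and *Abca1* (r = 0.98), those to *Prkaa2* were *Alyref2* (r = 0.997) and *BC025920* (r = 0.99), and those to *Prkag2* were *Psph* (r = 0.99) and *Coq7* (r = 0.98). Among the members themselves, *Ckm* and *Ckmt2* correlated at 0.95 and *Ckm* and *Ckb* at -0.82. CtrlCre replicate 2, the shallowest library, had the lowest value at *Ckm*, *Ckmt2*, *Prkaa2* and each of their closest peaks named. The *Prkaa2* values ranged only from 242 to 256. All points share the same 6 libraries and their size factors, and with so many peaks ranked the highest correlations are selected values.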

How the data were processed

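H3K4me3 ChIP–seq of sorted adult CM nuclei was analysed in 3 CtrlCre and 3 Cpt1bcKO libraries, grouped by their titles. Input libraries (3 per genotype) have no columns in the table and entered no fit.

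Per the study's methods and the submitters' processing notes, the authors trimmed reads (Trimmomatic 0.39), aligned them to mm10 (STAR 2.6.1d, unique alignments), removed duplicates (Picard 2.21.7), called peaks against input with MUSIC, merged them into union peaks and named each for the nearest promoter within 5000 bases. Per the study's methods, counts of union peaks were made with bigWigAverageOverBed. The deposited values are counts divided by DESeq2 (1.26.0) size factors and rounded by the authors, and were treated as a score. The deposited mean signal of each genotype is unrounded, and with it the whole counts were recovered uniquely for 15848 of 15848 peaks. The deposited fraction of a peak in the gene body was read but not tested. The log2 fold changes and p-values of the authors were not used. No column of another sample was present (0).

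Peaks with a mean of at least 10 (15039) were tested with limma 3.58.1 in R 4.3.3 (lmFit, eBayes with trend, two-sided) on log2(value + 1), which understates changes of low peaks, with Benjamini–Hochberg adjustment over all of them. Width classes used the 75th percentile of tested peaks. Isoform ratios were compared with exact permutation tests (SciPy 1.17.1). The fit was tested on simulated data. Alternatives were other pseudocounts, filters and normalizations, no trend, GC correction, a replicate block, limma-voom on recovered counts and single libraries left out. Positions follow the deposited table (mm10), GENCODE vM21 and RefSeq GRCm38.p6. Whether deposited starts count from 0 or 1 is not stated, so a position may be off by 1 base. All members are named. Of the pathway lists, peaks with an adjusted p under 0.05 and then the smallest p up to 10 genes were eligible. For likeness, the 2 closest peaks to each of 4 members were taken. The members and lists were chosen with earlier results of these data known.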

Additional observations from a re-analysis of the deposited data

How the results depend on the processing

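The count of 0 called members was the same under all 16 alternatives. The number of all tested peaks called was 441, was 43 without a trend in the prior variance and ranged from 229 (without CtrlCre replicate 1) to 431 with single libraries left out. It was also under 300 without Cpt1bcKO replicate 1, 2 or 3 (296, 288 and 246). Of the pathway peaks, 3 were called in the fit reported, 1 with quantile normalization, 1 with the GC correction, 0 without the trend, and 0 to 2 with single libraries left out (0 without Cpt1bcKO replicate 1 or 2). The cause was not tested.

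The labels do not say whether replicate numbers pair the samples. The deviations of same-numbered libraries from their genotype means correlated at 0.0759, -0.0812 and 0.105. Those of differently numbered libraries correlated between -0.162 and 0.114. With 3 libraries per genotype these values cannot decide whether the samples were paired. With a replicate block 370 tested peaks and 1 pathway peak were called, and with the replicate block and the GC correction 488 and 1. For the isoform ratios an exact sign-flip permutation test over same-numbered pairs gave p = 1, 0.25 and 0.5 as the replicate block for *Ckm* to *Ckb*, *Prkaa2* to *Prkaa1* and *Ak1* to *Ak3*. With 3 pairs this test cannot give a p below 0.25.

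Member differences near 0 changed sign. The GC correction, with or without the block, turned *Prkaa2* from 0.0156 to -0.0183. With single libraries left out, the log2 difference ranged from -0.256 to 0.0115 for *Ckmt2*, -0.0992 to 0.0821 for *Ckm*, -0.123 to 0.114 for *Ak1*, -0.00755 to 0.0329 for *Prkaa2*, -0.0563 to 0.0478 for *Prkag2*, and the difference of the *Ckm* to *Ckb* ratio from -0.0638 to 0.31. *Ckb*, *Prkab2*, *Ak3* and *Prkaa1* kept their direction under all 16 alternatives, though not their size: *Prkaa1* was 0.0951 in limma-voom and 0.0367 to 0.347 with single libraries left out, and *Ckb* was -0.228 to -0.0354. Among the members, the lowest recovered counts in a library were those of *Prkaa1* (34) and *Ckb* (53). The effect of depth on their differences was not tested. The intervals given are before correction over peaks, and differences inside them are not excluded by these libraries. They do not give the smallest difference that could have been called.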
